A study of Mus musculus with 6 samples.

Results

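The *Gimap* genes encode the GTPases of immunity-associated proteins, small GTP-binding proteins that sit on intracellular membranes of lymphocytes. They lie together in a single gene cluster, and several of them are known from mouse and rat mutants to be needed for the survival of T cells. For several members, expression is known to increase as T cells mature. All 8 *Gimap* genes of the tables, out of 41457 genes in all, were followed here in CD4-CD8- double negative (DN) thymocytes. They were taken by name as a family, which was chosen by the read counts of *Gimap4* and *Gimap8* in these same libraries after both had been seen to be lower in the mice that overexpress NFATc1. The comparison of the groups therefore describes the family and does not test it.

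DN thymocytes were compared between mice that overexpress NFATc1 (titled NC1Bio-, called Nc1Bio here) and mice labelled as wild type (titled BirA-, called BirA here), with 3 libraries each. The study describes these DN thymocytes as freshly isolated. Per the methods of the study, the Nc1Bio mice carry NFATc1/A with a biotin tag from a bacterial artificial chromosome transgene, and both groups carry the biotin ligase BirA, which in the mouse line named there is expressed from the ROSA26 locus. The mice were young and on a C57/B6 background, and CD4- and CD8-positive cells had been removed with magnetic beads, and the cells that remain can include other cell types of the thymus without these markers. Whether the 3 libraries of a group came from separate animals is not stated in the labels, so the spread between them may be technical in part.

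The libraries held 11845952 to 15393763 unique gene reads, which are reads assigned to 1 gene only, or 64.1% to 76.0% of all gene reads. Levels are given as CPM, the usual read counts scaled to a common library size, here with TMM factors, and fold changes as log2 of Nc1Bio over BirA. *Nfatc1* averaged 573 ± 23.2 CPM (SD) over the Nc1Bio libraries, against 126 ± 27.9 CPM over the BirA libraries, a difference of 2.19 on the log2 scale (SE 0.16, edgeR adjusted p = 0.0141). It was the only gene called higher by edgeR (0.00818% of those tested). The T lineage and DN markers *Cd3e*, *Cd3g*, *Il2ra*, *Ptcra*, *Rag1*, *Dntt*, *Cd24a* and *Bcl11b* were present in every library, with a summed level of 5267 to 6295 CPM in Nc1Bio and 4512 to 5228 CPM in BirA. The depleted co-receptors *Cd4*, *Cd8a* and *Cd8b1* summed to 21.1 to 41.6 CPM in Nc1Bio and 22.2 to 52.6 CPM in BirA. Of the erythroid markers, all 6 had a positive fold change, and their sum ranged widely in both groups, from 17644 to 97497 CPM in Nc1Bio, where replicate 3 was the highest, and from 20062 to 66106 CPM in BirA. BirA replicate 1 stood apart from the other libraries in other markers, with 386 CPM of 8 B lineage markers and 455 CPM of 8 NKT and innate-like T cell markers. A different library, BirA replicate 3, differed from the other 5 in its sex-linked genes. It had 45.1 CPM of *Xist* on total reads, against 0 to 0.091 CPM in the other 5. The Y-linked *Ddx3y* was at 0 CPM of unique reads in it, against 57.1 to 80.0 CPM. BirA replicate 3 therefore did not come from the same mouse as the other BirA libraries.

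The cluster spans chr6:48647234-48770851 of GRCm38 (123.6 kb), in the order *Gimap8*, *Gimap9*, *Gimap4*, *Gimap6*, *Gimap7*, *Gimap1*, *Gimap5* and *Gimap3*, with 6 genes on the plus and 2 on the minus strand. All 8 are annotated as protein coding. The promoter windows below are shown because *Gimap8*, *Gimap9* and *Gimap4* are direct neighbours that differed in their change between the groups, while *Gimap5* held the most matches to the NFAT core GGAAA along with *Gimap6*. Each window runs from 250 bases before to 50 bases after the start of the gene in RefSeq (GRCm38.p6), and capitals mark GGAAA or its reverse complement TTTCC.
*Gimap8*, chr6:48646984-48647283, plus strand: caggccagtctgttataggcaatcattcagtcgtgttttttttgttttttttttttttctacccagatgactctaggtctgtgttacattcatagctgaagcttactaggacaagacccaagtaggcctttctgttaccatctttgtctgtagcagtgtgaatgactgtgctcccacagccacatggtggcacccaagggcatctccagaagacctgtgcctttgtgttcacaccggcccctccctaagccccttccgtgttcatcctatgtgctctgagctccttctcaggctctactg
*Gimap9*, chr6:48675885-48676184, plus strand: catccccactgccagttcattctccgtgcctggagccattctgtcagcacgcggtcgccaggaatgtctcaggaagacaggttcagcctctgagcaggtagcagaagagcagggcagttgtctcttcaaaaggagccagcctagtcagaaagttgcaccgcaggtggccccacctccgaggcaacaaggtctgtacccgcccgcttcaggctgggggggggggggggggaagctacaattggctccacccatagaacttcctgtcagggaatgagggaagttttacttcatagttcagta
*Gimap4*, chr6:48684328-48684627, plus strand: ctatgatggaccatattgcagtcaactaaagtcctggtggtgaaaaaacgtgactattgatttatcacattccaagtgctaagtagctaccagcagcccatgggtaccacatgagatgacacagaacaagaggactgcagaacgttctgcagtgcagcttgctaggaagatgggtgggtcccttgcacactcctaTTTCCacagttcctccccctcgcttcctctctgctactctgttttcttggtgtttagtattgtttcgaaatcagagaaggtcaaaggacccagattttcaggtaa
*Gimap5*, chr6:48745947-48746246, plus strand: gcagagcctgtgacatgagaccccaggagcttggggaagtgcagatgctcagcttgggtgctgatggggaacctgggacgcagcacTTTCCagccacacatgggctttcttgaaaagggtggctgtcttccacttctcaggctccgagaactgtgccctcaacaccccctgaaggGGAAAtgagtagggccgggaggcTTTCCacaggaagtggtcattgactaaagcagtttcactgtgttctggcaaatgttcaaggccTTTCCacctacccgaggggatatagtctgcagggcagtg

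GGAAA was found 4 times each in the windows of *Gimap6* and *Gimap5*, 2 times each in those of *Gimap1* and *Gimap3*, and 1 time each in those of *Gimap4* and *Gimap7*. The windows used for *Gimap8* and *Gimap9* held no match on either strand. RefSeq gives 2 windows for *Gimap8*, and only the window nearest to the annotated start of the gene was searched. Of all 32851 RefSeq windows of the same length, 61.3% held the motif. The ETS core GGAAGT, which cannot share its GGAA with a GGAAA match, was found 2 times each for *Gimap9* and *Gimap5* and 1 time each for *Gimap6* and *Gimap1*, against 23.8% of all windows with a match. The Runx core TGTGGT was found 1 time each for *Gimap4*, *Gimap7* and *Gimap1*, against 16.8% of all windows. Matches of this kind describe the letters of these windows only, and binding was not measured in these libraries. The study mapped NFATc1 binding by ChIP-seq in total thymocytes of these mouse lines, and those data were not used here.

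**Figure D1:**
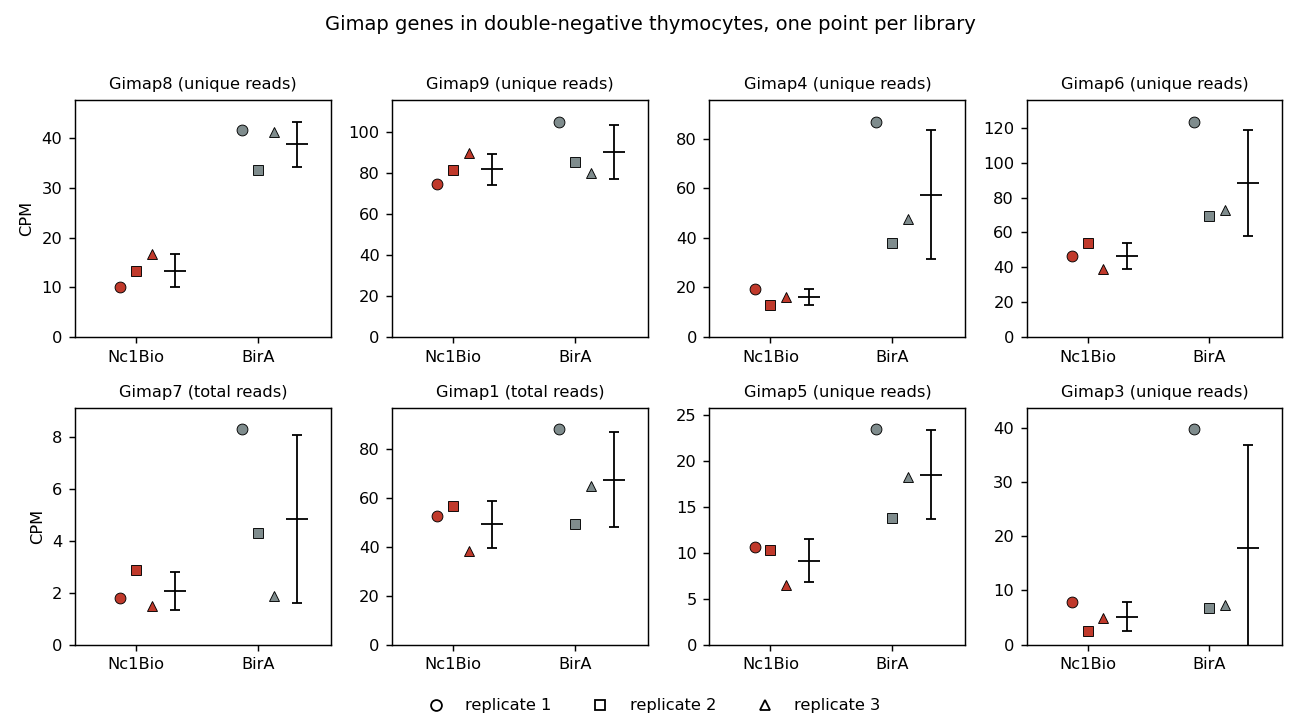
Level of each *Gimap* gene in CPM by group, 1 point per library, with Nc1Bio on the left and BirA on the right. The cross with bars is the mean ± SD of 3 libraries, and the lower bar of *Gimap3* in BirA is cut at 0. The highest point of every panel is BirA replicate 1 (circle), and the groups overlap for *Gimap9*, *Gimap7*, *Gimap1* and *Gimap3* as plotted.

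*Gimap8*, which encodes the largest GIMAP protein with several GTP-binding domains, was lower in Nc1Bio whichever library was left out. It had 9.99, 13.3 and 16.7 CPM in the Nc1Bio libraries, against 41.7, 33.6 and 41.2 CPM in the BirA libraries. The lowest BirA library was above the highest Nc1Bio library, and the log2 fold change of -1.54 (SE 0.21) stayed between -1.73 and -1.37 when any single library was left out. The mean was 13.3 ± 3.37 CPM (SD) in Nc1Bio, against 38.8 ± 4.52 CPM in BirA, with n = 3 in each.

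*Gimap4*, known in the mouse for its effect on the death of T cells, was, with *Gimap3* and *Gimap8*, among the members with the most negative fold changes on unique reads. It had 19.4, 12.7 and 16.0 CPM in Nc1Bio, against 86.8, 37.8 and 47.5 CPM in BirA. The Nc1Bio libraries lay together below all BirA libraries, and BirA replicate 1 was well above the other BirA libraries. The log2 fold change was -1.84 (SE 0.32) and became -1.41 without BirA replicate 1.

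*Gimap6*, an autophagy-linked member whose protein binds Gabarapl2, had 46.6, 54.1 and 39.2 CPM in Nc1Bio, against 124 (replicate 1), 69.3 and 72.7 CPM in BirA. The groups did not overlap, and the log2 fold change of -0.92 (SE 0.24) became -0.61 without BirA replicate 1. *Gimap5*, whose loss in mice and rats leads to a lack of lymphocytes, had 10.7, 10.3 and 6.48 CPM in Nc1Bio, against 23.5, 13.8 and 18.3 CPM in BirA. Its groups did not overlap either, and its log2 fold change was -1.02 (SE 0.28), with a range of -1.19 to -0.81 over the libraries left out. Over the cluster, *Gm28053* is a gene model on the same strand that covers 80.5% of *Gimap5*, and 70.2% of its total reads were unique. The log2 fold change on total reads was close (-1.09, SE 0.24).

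*Gimap9* had the highest group means in CPM of unique reads and the fold change nearest to 0 with all 6 libraries. It had 74.5, 81.6 and 89.7 CPM in Nc1Bio, against 105, 85.5 and 80.0 CPM in BirA. The groups overlapped, and the log2 fold change of -0.14 (SE 0.13) became -0.014 without BirA replicate 1. All of its reads were unique.

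*Gimap3*, whose protein acts together with Gimap5 in the mouse, showed a mean difference that rested on 1 library. It had 7.91, 2.58 and 4.86 CPM in Nc1Bio, against 39.8, 6.79 and 7.23 CPM in BirA. The groups overlapped, since Nc1Bio replicate 1 was above BirA replicates 2 and 3, and the log2 fold change of -1.81 (SE 0.75) became -0.46 without BirA replicate 1.

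*Gimap1* and *Gimap7* could be read only with care. *Gm28053* covers both genes entirely, and *Gimap1os* covers 50.4% of *Gimap1* on the opposite strand. Only 7.10% of the total reads of *Gimap1* and 8.19% of those of *Gimap7* were unique. On total reads *Gimap1*, which is needed for mature T and B cells in mice, had 52.6, 56.6 and 38.2 CPM in Nc1Bio, against 87.9, 49.3 and 65.0 CPM in BirA. The groups overlapped, and the log2 fold change of -0.46 (SE 0.23) became -0.22 without BirA replicate 1. On unique reads the groups of *Gimap1* did not overlap, and the log2 fold change was -0.80 (SE 0.38). *Gimap7*, whose protein stimulates the GTPase activity of its partners, had only 1 to 14 unique reads in a library and did not pass the filter on low counts. On total reads it had 1.78, 2.87 and 1.48 CPM in Nc1Bio, against 8.28, 4.29 and 1.88 CPM in BirA, groups that overlapped, with a log2 fold change of -1.23 (SE 0.57) that became -0.59 without BirA replicate 1.

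On unique reads, the level of all 8 genes together was 174, 181 and 176 CPM in Nc1Bio, against 429, 254 and 275 CPM in BirA. The Nc1Bio libraries were nearly alike and all below BirA, with a mean of 177 ± 3.62 CPM (SD, n = 3) in Nc1Bio, against 319 ± 95.8 CPM (n = 3) in BirA. The log2 ratio of these means was -0.85, and -0.58 without BirA replicate 1. Most reads of *Gimap1* are left out of this sum, since they were not unique. On total reads the sums were 178, 187 and 166 CPM in Nc1Bio, against 406, 236 and 264 CPM in BirA. The Nc1Bio SD was then 10.7 CPM, and the log2 ratio of the means was -0.77. In bulk RNA, fewer cells that express these genes and less RNA per cell cannot be told apart. The summed levels of the mature T cell, γδ, NKT, NK and B lineage marker lists were each lower in all Nc1Bio than in all BirA libraries. The T lineage and DN stage list went the other way. It summed to 5267 to 6295 CPM in Nc1Bio and 4512 to 5228 CPM in BirA, with 7 of 8 positive. The 14 mature T cell markers summed to 1786 to 1929 CPM in Nc1Bio and 2230 to 2472 CPM in BirA, with 12 of 14 negative. The 8 B lineage markers summed to 57.0 to 94.0 CPM in Nc1Bio and 137 to 386 CPM in BirA, and all 8 had a negative fold change. The 8 NKT and innate-like markers summed to 99.9 to 135 CPM in Nc1Bio and 173 to 455 CPM in BirA, with 7 of 8 negative. The 8 γδ markers summed to 1167 to 1519 CPM in Nc1Bio and 1618 to 2081 CPM in BirA, with 8 of 8 negative, and the 8 NK and innate lymphoid markers summed to 321 to 487 CPM in Nc1Bio and 660 to 686 CPM in BirA, with 6 of the 6 tested negative. Most of this NK sum was *Gzma*, which averaged 372 CPM in Nc1Bio and 615 CPM in BirA. *Nkg7* averaged 23.0 CPM in Nc1Bio and 24.3 CPM in BirA, and *Ncr1* 1.29 and 0.69 CPM. Granulocyte markers (357 to 5330 CPM in Nc1Bio, 438 to 8748 CPM in BirA) overlapped between the groups, with 6 of 8 negative. Macrophage markers (40.9 to 78.3 CPM in Nc1Bio, 54.8 to 193 CPM in BirA) overlapped as well, with 6 of the 6 tested negative. No defining marker of these lists was at 0 in all libraries. The part of these cells in the *Gimap* levels was not tested.

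All 7 members tested on unique reads had a negative log2 fold change, with a median of -1.02, against -0.0026 for all 12224 tested genes. On total reads the 8 members had a median of -1.16. The groups did not overlap, with Nc1Bio lower, for 5 of 8 members on unique reads, where this held for 9.98% of all tested genes, and for 4 of 8 on total reads, where it held for 9.98% as well. edgeR called 0 of 7 members lower at an adjusted p under 0.05 and likewise 0.0% of all genes, while 5 of the 7 and 7.66% of all genes were lower at an unadjusted p under 0.05. DESeq2 called *Gimap8*, *Gimap4*, *Gimap6* and *Gimap5* lower, and 2.16% of all genes with an adjusted p. The same 4 members were called by DESeq2 on total reads (2.03% of all genes) and after the filter on low counts (2.32%). *Gimap8*, *Gimap4* and *Gimap6* were called by edgeR without that filter (0.697%) and by DESeq2 at the study's own threshold (1.27%), whereas limma-voom called 0 members and 0.0% of all genes lower. Since this contrast chose the family, nothing is read from these counts.

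**Figure D2:**
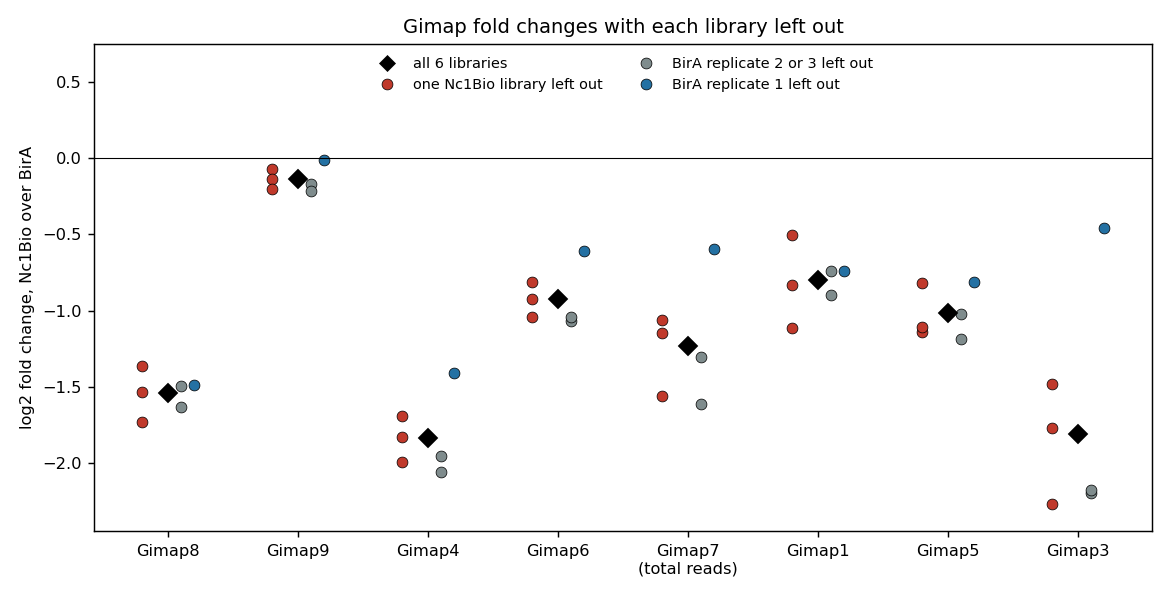
log2 fold change (Nc1Bio over BirA) of each *Gimap* gene with all 6 libraries (black) and with each library left out in turn, on unique gene reads except for *Gimap7* on total gene reads. Without BirA replicate 1 (blue) *Gimap3* lies at -0.46, against -1.81 with all libraries, and *Gimap8* lies at -1.49, against -1.54.

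To compare members with each other, total exon reads were divided by the length of the annotated exons. Only 7.10% of the total reads of *Gimap1* and 8.19% of those of *Gimap7* were unique. Their places in the order, and the shares of the summed level, therefore rest in part on reads that may belong to other gene models. *Gimap9* was the highest in both groups, with 35.0 ± 3.20 CPM per kb (SD, n = 3) in Nc1Bio, against 38.6 ± 5.87 CPM per kb (n = 3) in BirA, and *Gimap7* was the lowest, with 0.89 ± 0.32 CPM per kb in Nc1Bio and 2.12 ± 1.43 CPM per kb in BirA. In Nc1Bio the order was *Gimap9*, *Gimap1*, *Gimap6*, *Gimap4*, *Gimap8*, *Gimap5*, *Gimap3* and *Gimap7*, and the libraries of neighbouring genes in this order did not overlap down to *Gimap8*, whereas those of *Gimap8*, *Gimap5*, *Gimap3* and *Gimap7* overlapped from each to the next. In BirA the order was *Gimap9*, *Gimap4*, *Gimap1*, *Gimap6*, *Gimap8*, *Gimap3*, *Gimap5* and *Gimap7*, and neighbours were apart only between *Gimap6* and *Gimap8* and between *Gimap5* and *Gimap7*. *Gimap9* made up 47.1 ± 5.02% (SD, n = 3) of the summed level per kb in Nc1Bio, against 32.7 ± 5.23% in BirA. *Gimap4* made up 8.50 ± 1.97% of it in Nc1Bio, against 18.1 ± 2.68% in BirA.

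**Figure D3:**
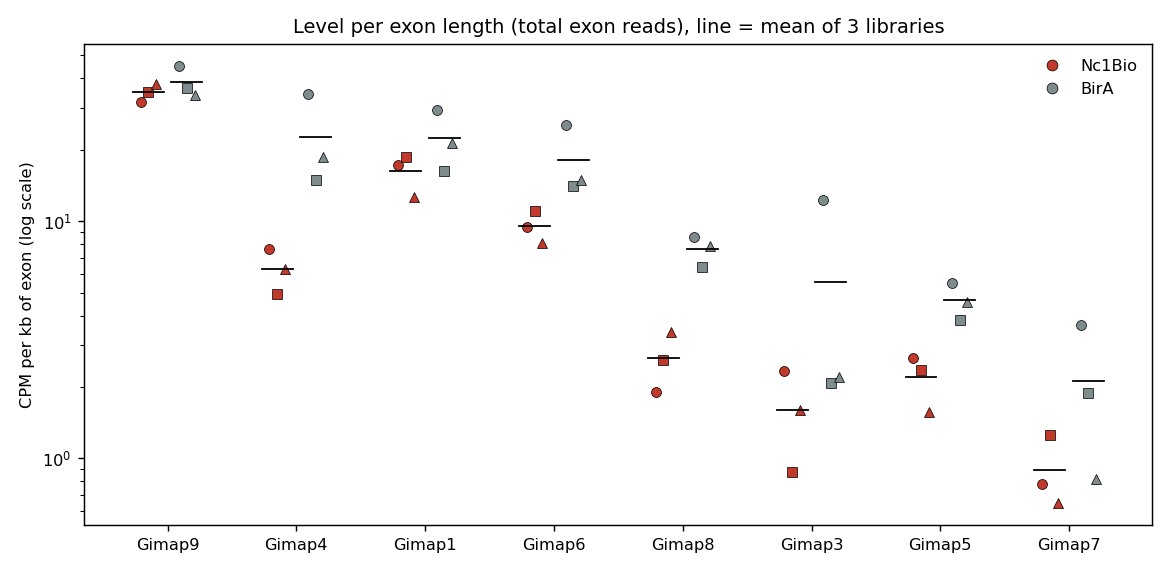
Level of each *Gimap* gene per kb of annotated exon (total exon reads, log axis), with Nc1Bio to the left of BirA and the mean of 3 libraries as a line. *Gimap9* is the highest gene in both groups, and *Gimap4* is the second in BirA but the fourth in Nc1Bio. Most reads of *Gimap1* and *Gimap7* were not unique.

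The genes around the cluster were tested to see whether the difference was shared by the region. Of 38 other genes within 500 kb of the cluster or inside it, 16 passed the filter on low counts, and 11 had a negative and 5 a positive log2 fold change, with a median of -0.15. edgeR called 0 of them lower (background 0.0%), 1 was lower and 1 was higher at an unadjusted p under 0.05 (7.66% and 4.31% of all genes), and DESeq2 on unique reads called 0. The zinc finger gene *Zfp467* had 2.25, 1.82 and 2.16 CPM in Nc1Bio, against 6.14, 4.67 and 4.24 CPM in BirA (log2 fold change -1.27, SE 0.35; adjusted p by edgeR 0.263), and the splicing regulator *Tra2a* had 137, 149 and 159 CPM in Nc1Bio, against 107, 141 and 117 CPM in BirA (log2 fold change 0.29, SE 0.12, edgeR adjusted p = 0.410). The genes nearest to either end that were tested showed small differences. The log2 fold change was 0.20 (SE 0.38) for *AI854703*, before *Gimap8*, and -0.34 (SE 0.23) for *Tmem176b*, beyond *Gimap3*. *AI854703* changed sign without Nc1Bio replicate 3 (-0.061), and both changed sign without BirA replicate 1 and Nc1Bio replicate 3 together.

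**Figure D4:**
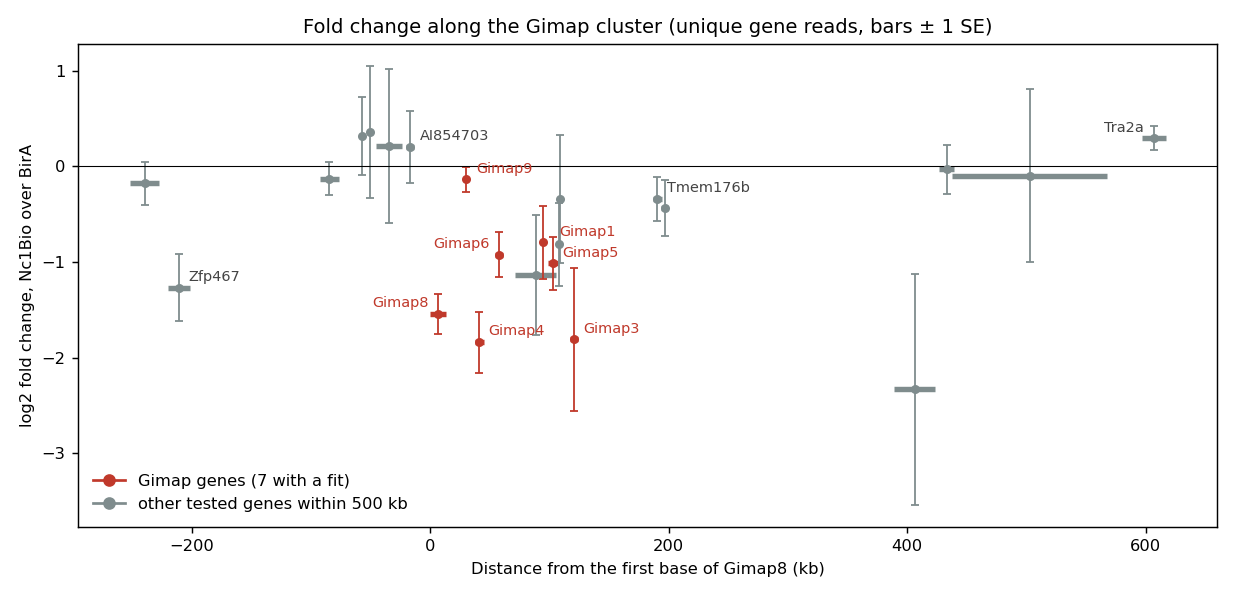
log2 fold change (Nc1Bio over BirA, bars ± 1 SE) of the 7 *Gimap* genes with a fit on unique reads (red) and the 16 other tested genes within 500 kb (grey), by distance from the first base of *Gimap8*. *Gimap9* at -0.14 lies between *Gimap8* at -1.54 and *Gimap4* at -1.84, and the tested genes next to either end lie at 0.20 and -0.34.

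Of the gene models that overlap the cluster, *Gimap1os*, a transcript opposite to *Gimap1*, had 4.44, 6.18 and 8.35 CPM of total reads in Nc1Bio, against 14.8, 13.1 and 14.1 CPM in BirA. Few of its reads were unique, with 0.58, 0.38 and 0.39 CPM in Nc1Bio, against 0.79, 0.90 and 0.35 CPM in BirA. On unique reads its groups overlapped, and it did not pass the filter on low counts. On total reads the groups did not overlap, and the log2 fold change was -1.15 (SE 0.25, edgeR adjusted p = 0.198, DESeq2 adjusted p = 0.00698). For *Gm28053* it was -1.14 (SE 0.51), with an edgeR adjusted p of 0.443. No source used here gives the strand setting of the counting, so reads of *Gimap1* and *Gimap1os* cannot be told apart.

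Other gene lists were set beside the family. Of 15 genes whose products work with GIMAP proteins, all were tested, and 9 had a negative and 6 a positive fold change (median -0.070). edgeR called 0 of them lower (0.0% of all genes), DESeq2 on unique reads called *Prkcq* (2.16% of all genes), and 2 of 15 were lower by edgeR's unadjusted p under 0.05 (7.66% of all genes). *Prkcq*, a protein kinase C of T cell receptor signalling, averaged 110 ± 13.5 CPM (SD) in Nc1Bio, against 149 ± 6.90 CPM in BirA, a difference of -0.44 on the log2 scale (SE 0.11, edgeR adjusted p = 0.234). The anti-apoptotic *Bcl2* averaged 73.6 ± 24.1 CPM in Nc1Bio, against 113 ± 24.7 CPM in BirA (log2 fold change -0.61, SE 0.24). The log2 fold change was -0.24 (SE 0.12) for the kinase gene *Gsk3b* and -0.52 (SE 0.28) for *Bcl2l11*, which encodes the pro-apoptotic Bim, and the value of *Bcl2l11* became -0.066 without BirA replicate 1.

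The 14 mature T cell and egress genes, of which *Ccr7*, *S1pr1* and *Klf2* are known to increase as thymocytes mature while *Tcf7*, *Lef1* and *Satb1* are already expressed in early thymocytes, had a median log2 fold change of -0.83, with 12 negative and 2 positive (*Tcf7* and *Lef1*). edgeR called 0 of them. DESeq2 called 6 lower and 1 higher (2.16% and 0.32% of all genes), 1 also being called higher after the filter on low counts (0.468%), and by edgeR's unadjusted p under 0.05 the numbers were 8 and 1 of 14 (7.66% and 4.31% of all genes). The median became -0.44 without BirA replicate 1 and -1.01 without Nc1Bio replicate 3. *Foxo1*, a regulator of T cell survival and homing, averaged 27.2 ± 2.17 CPM (SD) in Nc1Bio, against 53.0 ± 7.46 CPM in BirA (log2 fold change -0.96, SE 0.14, edgeR adjusted p = 0.106). The homing receptor *Ccr7* averaged 11.3 ± 2.77 CPM in Nc1Bio, against 26.3 ± 2.95 CPM in BirA (log2 fold change -1.22, SE 0.21, edgeR adjusted p = 0.110). The log2 fold change of *Ms4a4b*, a membrane protein of T cells, was -1.10 (SE 0.19) with an edgeR adjusted p of 0.111, and that of *Itgae*, the integrin chain CD103, was -2.03 (SE 0.46) with 0.194.

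The interferon-induced GTPases, the other large group of immunity GTPases in the mouse, showed no common direction. Of 17 genes 11 were tested, with 5 negative and 6 positive fold changes and a median of 0.0088. edgeR called 0 of them and DESeq2 on unique reads called 0 (0.32% of all genes higher), while 3 of 11 were higher by edgeR's unadjusted p under 0.05 (4.31% of all genes). The log2 fold change of *Gbp3* was 0.67 (SE 0.17), with *Gbp9* at 0.59 (SE 0.24), *Gbp8* at 0.37 (SE 0.13) and *Irgm2* at -0.14 (SE 0.19), and none of the 4 passed in edgeR (adjusted p of 0.248 to 0.807).

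The summed level of the family was compared with that of 9627 genes of at least 5 CPM over the 6 libraries, which share their library and scaling, as a description. The highest Pearson correlations of log2 CPM were those of *Cog8* (0.997), *Ltb* (0.994), *Crebrf* (0.990), *Otulinl* (0.986) and *Cd72* (0.983). A high correlation does not mean a difference of like size. *Cog8* had 55.9, 56.3 and 55.8 CPM in Nc1Bio, against 65.2, 60.0 and 60.0 CPM in BirA. *Ltb*, which encodes lymphotoxin beta, had 59.7, 58.6 and 64.2 CPM in Nc1Bio, against 193, 93.4 and 101 CPM in BirA, and *Cd72*, a receptor of B cells, had 4.25, 3.64 and 3.70 CPM in Nc1Bio, against 18.3, 6.02 and 7.57 CPM in BirA. Each was highest in BirA replicate 1, as the family was. After the group means were taken off, the highest were *Pnrc1*, *Thap1*, *Snx2*, *2300002M23Rik* and *Gm7030* (r of 0.992 to 0.998), and in these, too, BirA replicate 1 was the highest library.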

How the data were processed

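Poly(A) libraries were sequenced from total RNA of DN thymocytes. Cutadapt, STAR, featureCounts and DESeq2 are named in the study's methods and GRCm38 in the labels, but no source used here says which program wrote the tables. The authors deposited integer read counts per gene (unique and total reads, over genes, exons and introns), and their RPKM and TPM columns were not used.

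Unique gene reads were the main counts. Genes passing filterByExpr (12224 of 41457) were scaled by TMM and tested in edgeR 4.0.16 (quasi-likelihood, R 4.3.3) with genotype as the single term, Benjamini-Hochberg adjustment over all tested genes and calls at 0.05. The SE is the log2 fold change divided by the square root of F. DESeq2 1.42.0 and limma-voom (limma 3.58.1), other scaling, filters and count columns, a replicate block and each library left out were alternatives. The steps were tested on simulated data. No library was a copy of another (chi-square divided by its degrees of freedom was at least 26.3 for every pair). Counts are reads, not molecules.

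The members and lists were chosen with earlier results of these data known. Named were all members, *Nfatc1*, the neighbours next to the cluster or with an unadjusted p under 0.05, the 4 genes of lowest p of each list, and the 5 genes most like the family in each ranking. Likeness used log2(CPM + 1). DESeq2 was first run on the genes passing filterByExpr. After its counts were seen it was changed to all genes with reads, and the first version was kept as an added alternative.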

Additional observations from a re-analysis of the deposited data

How the results depend on the processing

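Over all genes edgeR called 0 lower and 1 higher, and an unadjusted p under 0.05 was reached by 936 lower and 527 higher genes. Without the filter on low counts it called 145 lower and 11 higher, with the replicate block 1 lower, and without the pair of BirA replicate 1 and Nc1Bio replicate 3 it called 2 lower. Leaving out 1 library at a time gave 0 to 1 lower and 0 to 1 higher. DESeq2 called 284 lower and 42 higher, 167 and 16 at the study's threshold (adjusted p under 0.01, log2 fold change beyond 0.5), and, as alternatives added after seeing the data, 301 and 44 on total gene reads and 273 and 55 after the low-count filter. Of the *Gimap* genes, edgeR called 0 with all libraries and with each one left out, 3 without the filter, and DESeq2 called 4 on unique reads, on total reads and after the filter, and 3 at the study's threshold. The replicate numbers were not treated as pairs, since nothing in the labels ties them and same-numbered libraries correlated at 0.34, 0.11 and -0.16 after the group means were taken off (a shared origin of some of them was not tested), and the replicate block called 0 *Gimap* genes. DESeq2 on total gene reads called 1 neighbour and 1 interferon-induced GTPase lower. DESeq2 called 1 partner gene lower on unique reads and after the filter. Of the mature T cell genes, edgeR without the filter called 5 lower, and DESeq2 called 6 lower in each of its fits and 1 higher on unique reads and after the filter. The causes of these differences were not tested.

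Of 136 *Gimap* fold changes under the alternatives all 136 were negative, and 4 moved by more than the spread between replicates. All 4 left out BirA replicate 1: *Gimap3* at -0.46, and, with Nc1Bio replicate 3 left out as well, *Gimap3* at -0.42, *Gimap5* at -0.62 and *Gimap6* at -0.50. With single libraries left out, *AI854703* lay between -0.061, when Nc1Bio replicate 3 was missing, and 0.45, when Nc1Bio replicate 1 was missing, and with both libraries left out *AI854703* was at -0.16 and *Tmem176b* at 0.066. The number of unique reads limits *Gimap7*, with 1 to 14 in a library, of 27 to 161 total reads, and the gene lies within another gene model.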

Other observations

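*Igf2bp3*, an RNA-binding protein gene within 500 kb of the cluster, was chosen after its values were seen. It had 3.91, 31.9 and 44.8 CPM in Nc1Bio replicates 1, 2 and 3, against 4.55, 38.4 and 43.4 CPM in BirA replicates 1, 2 and 3. The library numbered 1 was the lowest in both groups, while the log2 fold change between the groups was -0.098 (SE 0.90). The *Gimap* genes were highest in BirA replicate 1, but Nc1Bio replicate 1 did not stand apart in their summed level.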
